A study of Homo sapiens with 14 samples.

Results

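The genes described here are 39 DNA replication and G1/S genes: the components that license and fire replication origins, the replicative polymerases with their clamp and clamp loader, the enzymes that supply deoxynucleotides, and the G1/S genes CCNE1, CCNE2 and E2F1. They were taken by symbol from a table of 27543 named loci, using the locus of highest mean where a gene had more than 1 (GINS4 had 3). All 39 were found, and all 39 reached 1 FPKM (fragments scaled by transcript length and library size) in at least 2 libraries, as did 13137 named loci in all. The rule names genes by function. Measured values enter it through the choice of locus and the minimum of 1 FPKM. The list was chosen with earlier results of these data known. E2F1 shares its locus with PXMP4, so its values may include reads of that gene.

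The study sequenced mRNA of MCF-10A, a human mammary epithelial cell line that is immortal but does not form tumours. Retroviruses delivered the constructs, cells were taken on day 2, and there are 7 groups with 2 libraries each, 14 in all. The empty pMSCV Hygro vector and the empty pMSCV Puro vector are the controls, and YAP 5SA is a hyperactive form of YAP, the coactivator of TEAD transcription factors. The other 4 groups carry MRTFB, a coactivator of the transcription factor SRF, always in the dN form that cannot bind G-actin: MRTFB dN alone, MRTFB dN dPY, which also cannot bind YAP, MRTFB dN Y305A, which also cannot bind SRF, and MRTFB dN Y305A/dPY, which can bind neither. The labels do not say which vector carried which construct, whether the replicates are separate infections, or how many cells were infected, and the endogenous genes remain in all groups. Here YAP 5SA was set against the Hygro vector and the MRTFB forms against the Puro vector, and p values measure the spread between these libraries, which may be technical.

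The introduced genes were visible. YAP1 reached 625 and 529 FPKM with YAP 5SA and lay between 18.3 and 50.9 in the other 12 libraries. MKL2, the symbol of MRTFB in the table, ranged from 165 to 610 FPKM across the 8 libraries with MRTFB constructs, and was between 3.06 and 6.6 elsewhere. The 10 mammary epithelial markers not missing in any library summed to between 2550 and 56700 FPKM. Among them KRT8 and KRT18 are listed at 0 in replicate 1 of both Y305A forms and are high in replicate 2. A listed 0 may therefore be a failed estimate. TP63, another of the 10, was lower in YAP 5SA than in either vector. It was 2.70-fold lower against Hygro and 5.27-fold against Puro (limma adjusted p = 0.009 and 0.00056). The others of the 10 did not reach an adjusted p under 0.05 in these comparisons. Of the leukocyte markers PTPRC and CD3E stayed below 0.05 FPKM, LYZ reached 2.64 and CD14 lay between 1.31 and 148.7, while the locus of CD68 also holds EIF4A1 and other genes and cannot be read for CD68. CD14 was lower in all YAP 5SA, MRTFB dN and MRTFB dN dPY libraries than in all others. Of the endothelial markers PECAM1, VWF, KDR and TEK reached at most 0.304 FPKM, but CDH5, at most 0.145 in the vectors and YAP 5SA, had 2.77 and 2.78 FPKM in MRTFB dN, 0.631 and 1.21 in MRTFB dN dPY and between 4.51 and 14.6 in the Y305A forms. Of the fibroblast markers COL1A2, PDGFRA, PDGFRB and LUM reached at most 0.163 FPKM and COL1A1 at most 3.13. COL3A1 had 1.13 and 3.76 FPKM in MRTFB dN, 0.263 and 0.981 in MRTFB dN dPY and at most 0.0118 elsewhere, and DCN at least 2.10 in the vectors and at most 0.891 elsewhere. Of the neural markers SYP, GFAP, RBFOX3 and SNAP25 reached at most 0.591 FPKM, and MAP2 ran from 0.583 in Puro vector replicate 1 to 11 in YAP 5SA replicate 2. The part of these markers in the results was not tested. The table holds no counts. Relative depth, read from the lowest values with the Hygro vector replicate 1 at 1, ran from 0.319 in Puro vector replicate 1 up to 1.4 in replicate 1 of YAP 5SA. Puro vector replicate 1 also stood apart in having 4780 unnamed loci at 1 FPKM or more, against 211 to 669 in the others. MRTFB dN dPY replicate 1 holds no value above 0 for named loci on chromosome 7 after PPIA and on chromosomes 8, 9 and X. MCM4, MCM7, GINS4, POLA1, RFC2 and CCNE2 lie there and were treated as missing in that library, so they rest on 1 MRTFB dN dPY library and 33 genes have a value in all 14. POLE2 is listed at 0 in the same library but lies outside that part, and its 0 was kept.

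A dividing cell loads MCM helicases onto origins in G1, with ORC, CDC6 and CDT1 as loaders. At the start of S phase CDC45 and GINS join the helicase, and the polymerases follow. Most genes of this machinery are transcribed in late G1, when cyclin-dependent kinases inactivate RB and release E2F, which binds sites near their start. The RNA of these genes is therefore a usual readout of how many cells in a culture are moving into S phase. In bulk RNA, fewer cells of a phase and less RNA per cell cannot be told apart.

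Promoters are shown to give examples of E2F sites at these genes, although most of the windows searched, those of TK1 and RRM2 included, held none. RefSeq promoter windows on GRCh38.p14, each with 250 bases before and 50 bases after a transcript start, were at hand for 34 of the 39 genes (44 windows). CCNE2, GINS4, MCM4, MCM5 and RPA2 were not matched. An E2F site, searched on both strands as TTTCGCGC or TTTGGCGC, was present in 12 of the 44 windows (27.3%), against 1.15% of all 35116 windows. The CCAAT box was present in 61.4% of them, against 34.6% of all windows, and 9 windows held both. TTTGAA or TTCGAA, the CHR element of G2/M genes, was present in 4.55% of the windows of the 39 genes, 16.4% of all windows and 78.3% of those of 25 mitosis genes. GGAATG, a TEAD site, was present in 15.9% of their windows and 14% of all. Matches are descriptions of these letters and not evidence of binding. The 250 bases before the start are printed for the 4 genes with a site wholly before the start and the strongest averaged effect of the PY deletion described further on, with E2F sites in capitals and all else in lower case. Other windows of MCM7 and UHRF1 held no such site, and the start meant is that of the printed window. For MCM7 (chr7:100101398-100101647, minus strand) the site begins 9 bases before the start, for MCM6 (chr2:135876444-135876693, minus strand) there are 4 overlapping matches in 2 places, starting 152 to 86 bases before it, and for UHRF1 (chr19:4909894-4910143, plus strand) and E2F1 (chr20:33686386-33686635, minus strand) it begins 160 and 20 bases before.
MCM7: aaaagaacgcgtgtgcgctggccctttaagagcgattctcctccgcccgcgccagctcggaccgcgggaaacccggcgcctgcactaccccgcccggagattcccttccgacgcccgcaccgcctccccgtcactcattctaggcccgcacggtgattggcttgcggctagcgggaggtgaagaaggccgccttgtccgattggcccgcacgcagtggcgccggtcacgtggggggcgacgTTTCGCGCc
MCM6: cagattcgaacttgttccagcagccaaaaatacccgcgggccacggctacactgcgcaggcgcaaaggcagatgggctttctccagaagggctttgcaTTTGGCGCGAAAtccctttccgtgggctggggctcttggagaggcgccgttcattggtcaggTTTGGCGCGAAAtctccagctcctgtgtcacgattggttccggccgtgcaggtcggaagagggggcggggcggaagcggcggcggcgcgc
UHRF1: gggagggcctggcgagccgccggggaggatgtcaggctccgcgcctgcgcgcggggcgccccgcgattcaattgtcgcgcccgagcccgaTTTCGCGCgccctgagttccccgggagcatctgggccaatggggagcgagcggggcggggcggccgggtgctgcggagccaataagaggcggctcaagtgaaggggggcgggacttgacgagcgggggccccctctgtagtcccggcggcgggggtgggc
E2F1: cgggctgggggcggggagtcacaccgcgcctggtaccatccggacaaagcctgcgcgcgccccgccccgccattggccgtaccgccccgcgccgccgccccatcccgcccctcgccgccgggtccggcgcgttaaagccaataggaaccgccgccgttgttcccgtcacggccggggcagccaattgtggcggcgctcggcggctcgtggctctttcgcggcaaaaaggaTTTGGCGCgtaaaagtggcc

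FPKM is scaled by length, so levels can be compared between genes. Among these genes PCNA, the sliding clamp, reached the highest level, from 10.7 FPKM in MRTFB dN dPY replicate 1 to 71.7 in YAP 5SA replicate 2. TK1, the thymidine kinase of the salvage pathway, ranged from 6.76 to 46.4 FPKM, the helicase subunit gene MCM7 from 9.28 to 43.4 and the clamp loader gene RFC2 from 6.51 to 44.3. At the other end the helicase activator gene MCM10 lay between 0.128 and 3.01 FPKM, ORC1 between 0.22 and 3.08 and POLE2 between 0 and 3.68, so their values rest on few reads. The lowest of the 14 libraries was MRTFB dN dPY replicate 1 for 22 genes and replicate 2 of the same group for 7 more. Of these 7, MCM4, MCM7, POLA1 and RFC2 have no value in replicate 1 and were ranked without it. The highest of the libraries was a YAP 5SA library for 24 genes, 12 for each replicate. The same counts were not made over all loci, so a tendency of whole libraries cannot be told apart from one of these genes here. Over the 33 genes with a value everywhere the median log2(FPKM + 1) was 1.68 and 1.97 in MRTFB dN dPY and 3.62 and 3.52 in YAP 5SA. It was 2.06 and 3.04 in the Hygro vector, 2.52 and 3.01 in the Puro vector. MRTFB dN had 2.99 and 2.57, MRTFB dN Y305A had 2.53 and 3.22, and MRTFB dN Y305A/dPY had 2.38 and 2.36. By this median both YAP 5SA libraries lay above and both MRTFB dN dPY libraries below all others, and the Hygro libraries lay far apart.

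**Figure D1:**
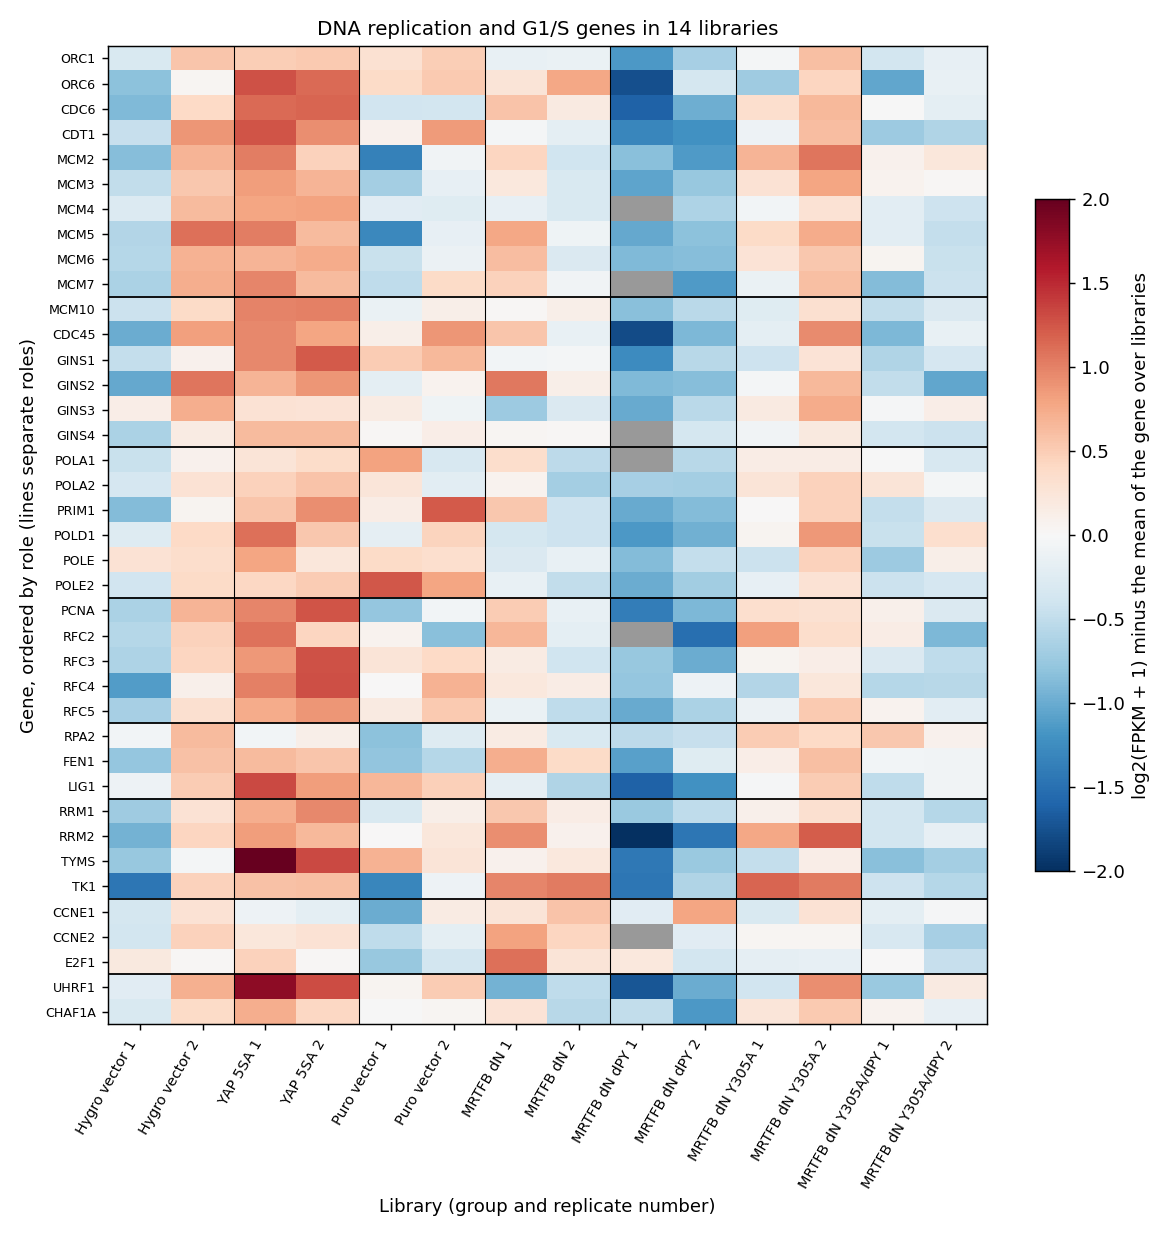
Colour gives log2(FPKM + 1) of each of the 39 genes (rows, grouped by role) in each of the 14 libraries (columns), minus the gene's mean over the libraries, and grey marks the 6 missing values. The YAP 5SA columns are mostly red, both MRTFB dN dPY columns mostly blue, and the Hygro vector replicates differ from each other.

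The comparison of each PY-deleted form with its parent asks what loss of YAP binding does to MRTFB, once with SRF binding intact and once without it. The backgrounds share no library. In both, all 39 genes had a negative log2 fold change, with a median of -0.86 for MRTFB dN dPY against MRTFB dN and -0.50 for MRTFB dN Y305A/dPY against its parent MRTFB dN Y305A, while the medians of all 13137 loci were -0.01 and 0.00. No gene of the 39 passed the threshold (limma, Benjamini-Hochberg adjusted p of 0.05) in either comparison, in which 0.0913% and 0.0152% of all loci passed as lower. At an unadjusted p under 0.05 24 of them were lower in the former comparison and 2 in the latter, and none was higher, with 439 and 270 of all loci in either direction. Averaged over both backgrounds the 39 effects ran from -1.81 to -0.12 with a median of -0.68. Again 0 passed over all loci (0.0152% of loci passed as lower), and 26 were lower at an unadjusted p under 0.05, with 535 of all loci in either direction.

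The same comparison was read by pairs of libraries with the same replicate number. MRTFB dN dPY was below MRTFB dN for 33 of 33 genes in replicate 1 and for 38 of 39 in replicate 2, where CCNE1 was higher. MRTFB dN Y305A/dPY was below MRTFB dN Y305A for 33 of 39 genes in replicate 1 and 39 of 39 in replicate 2. The 6 exceptions in replicate 1 were POLA2, RFC4, RFC5, RPA2, CCNE1 and E2F1. The median differences were -1.27, -0.60, -0.32 and -0.72, and those of all loci lay between -0.01 and 0.00. Of the 33 genes with all 4 pairs 27 were lower in every pair (81.8%), against 16.9% of all loci with 4 pairs, and the other 6 genes were lower in all 3 of their pairs. Without any use of pairs, both MRTFB dN dPY libraries lay below both MRTFB dN libraries for 29 of 33 genes, against 14.4% of all loci, and both MRTFB dN Y305A/dPY libraries below both MRTFB dN Y305A libraries for 27 of 39, against 14.8% of all loci. The genes vary together across libraries, so these counts do not stand for that many separate results.

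**Figure D2:**
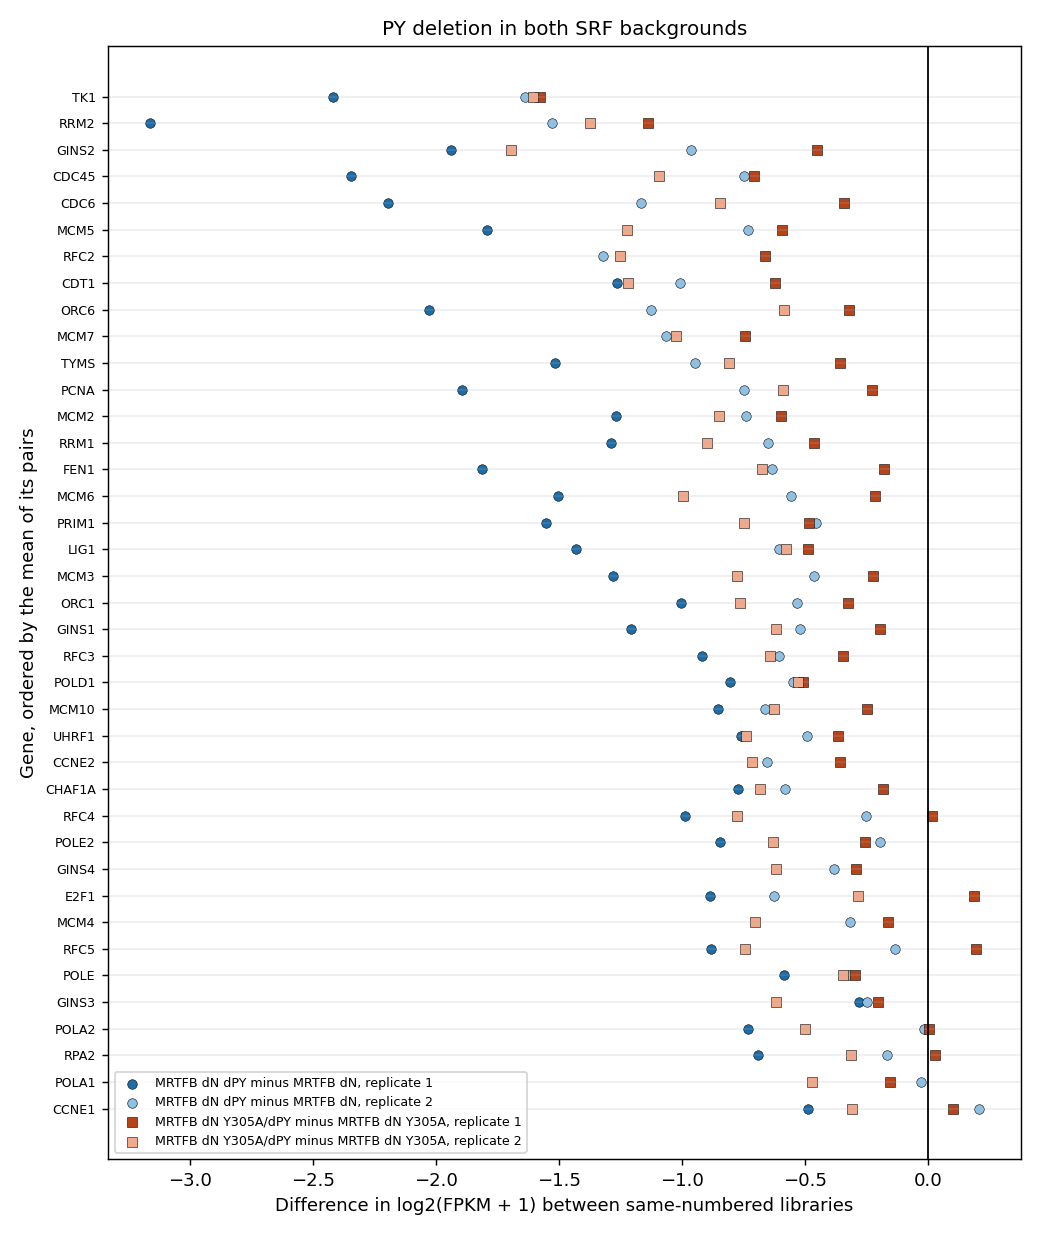
Each point is the difference in log2(FPKM + 1) between a PY-deleted MRTFB library and the library of its parent form with the same replicate number, for each of the 39 genes, ordered by the mean of the pairs. Nearly all points lie left of 0, and TK1 and RRM2 lie farthest to the left.

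TK1 and RRM2, both genes of deoxynucleotide supply, had the most negative averaged effects of the PY deletion among the 39 genes. TK1 stood at 40.7 and 42.5 FPKM in MRTFB dN and at 6.78 and 13 in MRTFB dN dPY. With the Y305A change its level was 46.4 and 42.4 FPKM, and 14.9 and 13.2 FPKM with the PY deletion added. Groups with and without the PY deletion did not overlap, and the 4 paired log2 differences lay between -2.42 and -1.58. In the fit of the 8 MRTFB libraries with the replicate number as a block TK1 fell 3.51-fold (log2 fold change -1.81 ± 0.19, limma adjusted p = 0.049) and was the only one of the 39 to pass, where 0.175% of all loci passed as lower. The call did not hold in the fit of all libraries without the block (-1.81 ± 0.39, adjusted p = 0.28), and over its alternatives the adjusted p ran from 0.018 to 0.24. It held without either MRTFB dN dPY library and was lost without any 1 of the other 6, where the adjusted p was 0.15 to 0.24. In the blocked fit 33 of the 39 genes were lower and none higher at an unadjusted p under 0.05, with 2048 of all loci in either direction.

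RRM2, the regulatory subunit of ribonucleotide reductase, stood at 25.9 and 14 FPKM in MRTFB dN and at 2.00 and 4.20 in MRTFB dN dPY. With the Y305A change it stood at 23 and 31.7 FPKM, and at 9.89 and 11.6 with the PY deletion added. Here too groups with and without the deletion did not overlap in either background. The log2 fold changes were -2.35 ± 0.45 (adjusted p = 0.085) and -1.26 ± 0.45 (adjusted p = 1) by limma. TYMS, which makes thymidylate, and RRM1, the large reductase subunit, were lower in all 4 pairs, with averaged log2 fold changes of -0.91 ± 0.27 (adjusted p = 0.56) and -0.82 ± 0.23 (adjusted p = 0.51).

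Among the origin licensing genes all 10 were lower in every pair they had. CDC6, the loader of the MCM helicase, stood at 7.45 and 5.44 FPKM in MRTFB dN and at 0.846 and 1.87 in MRTFB dN dPY (-1.68 ± 0.38, limma adjusted p = 0.18). Without SRF binding the levels were 6.13 and 7.88 FPKM in the parent form and 4.63 and 3.94 with the PY deletion (-0.59 ± 0.38, adjusted p = 1). Neither pair of groups overlapped. CDT1, which loads MCM together with CDC6, had paired log2 differences between -1.26 and -0.62, and those of MCM5 lay between -1.79 and -0.59. ORC6 and MCM7 had averaged log2 fold changes of -1.02 ± 0.37 and -1.11 ± 0.38 (adjusted p = 0.85 and 0.82). MCM4, a subunit of the same ring as MCM7, was nearer to 0, with paired log2 differences of -0.32, -0.16 and -0.70.

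Of the genes of helicase activation all 6 were lower in every pair they had. CDC45 stood at 5.42 and 2.94 FPKM in MRTFB dN and at 0.264 and 1.35 in MRTFB dN dPY. Without SRF binding it stood at 2.80 and 7.41 FPKM, and at 1.33 and 2.94 with the PY deletion, so groups overlapped only in the latter background. The averaged log2 fold changes were -1.22 ± 0.42 for CDC45 and -1.26 ± 0.40 for GINS2 (adjusted p = 0.81 and 0.67), and -0.34 for GINS3, the smallest of the group.

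Among the DNA synthesis genes PRIM1, the primase subunit, and POLD1, the catalytic subunit of the lagging strand polymerase, were lower in all 4 pairs, with averaged log2 fold changes of -0.81 and -0.60. POLA2 was nearly level in the second pair of MRTFB dN (1.73 and 1.71 FPKM) and in the first of MRTFB dN Y305A (4.20 and 4.22 FPKM). PCNA went from 42.3 and 26.4 FPKM in MRTFB dN to 10.7 and 15.3 with the PY deletion. Without SRF binding the levels were 37.3 and 36.5 FPKM, and 31.7 and 23.9 with the deletion. Its paired log2 differences, from -1.89 to -0.23, were all negative. Of the 5 genes of the clamp and its loader RFC4 and RFC5 were slightly higher in the first pair of MRTFB dN Y305A. FEN1, the flap nuclease, and LIG1, the ligase that joins Okazaki fragments, were lower in every pair, and RPA2 of the single strand binding complex in 3 of 4.

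The G1/S genes were less regular. CCNE1, which encodes cyclin E1, stood at 3.69 and 4.83 FPKM in MRTFB dN and at 2.35 and 5.74 in MRTFB dN dPY. Without SRF binding it stood at 2.17 and 3.78 FPKM, and at 2.40 and 2.86 with the deletion. The groups overlapped in both backgrounds, and its averaged log2 fold change of -0.12 was the closest to 0 of all 39. E2F1, whose product activates most of the list, was lower in 3 of 4 pairs, and CCNE2, the other cyclin E gene, in all 3 of its pairs. UHRF1, which maintains DNA methylation behind the fork, and CHAF1A, a histone chaperone subunit, were lower in all 4.

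Several measured properties moved with these differences or did not. MKL2 was near equal in the pairs of the SRF-binding background, at 299.5 and 165 FPKM in MRTFB dN against 286 and 171 with the PY deletion. In the other background it was higher with the PY deletion, at 610 and 343 FPKM against 404 and 294 FPKM, and its part in that result was not tested. Relative depth was 0.578 and 0.702 in MRTFB dN against 0.511 and 0.785 with the PY deletion, and 0.753 and 0.966 in MRTFB dN Y305A against 0.796 and 1.11 with it. Without MRTFB dN dPY replicate 1, the partly empty library, the median averaged effect was -0.66. Leaving out each of the 8 libraries in turn gave medians between -0.82 and -0.61.

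Whether the PY deletion acted differently in the 2 backgrounds was tested as an interaction. The difference was positive for 36 of 39 genes, that is, the effect was less negative without SRF binding, with a median of 0.31 on the log2 scale against 0.01 over all loci. None of the 39 passed (limma, 0.0152% of all loci passed as higher) and none had an unadjusted p under 0.05. The lowest p belonged to CDC6 (1.09 ± 0.53, adjusted p = 1) and RRM2 (1.09 ± 0.63, adjusted p = 1). The replicates contributed unequally: the median paired difference with SRF binding was -1.27 in replicate 1 and -0.60 in replicate 2, and without it -0.32 and -0.72.

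Each of the 4 forms was also set against the Puro vector. All 4 comparisons share both Puro libraries, so they are not independent. In MRTFB dN dPY 15 genes fell and none rose (14.8% of all loci passed as lower), with a median log2 fold change of -0.81 against 0.07 for all loci. The 15 came from 7 of the 8 roles: 3 of 10 licensing genes, 2 of 6 of helicase activation, 4 of 6 of polymerases and primase, 2 of 5 of the clamp and its loader, 2 of 4 of deoxynucleotide supply, LIG1 and UHRF1, and none of the G1/S genes. Both libraries lay below both Puro libraries for 26 of 33 genes, against 30.9% of all loci.

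LIG1 fell 3.94-fold in MRTFB dN dPY, from 13.3 and 11.6 FPKM to 1.96 and 2.91 (-1.98 ± 0.32, limma adjusted p = 0.0011). RRM2 fell 3.87-fold, from 13.2 and 15.4 FPKM (adjusted p = 0.0072), and POLE2, an accessory subunit of the leading strand polymerase, 3.61-fold, from 3.68 and 2.42 FPKM to 0 and 0.229 (adjusted p = 0.0011). CDC45 fell 3.58-fold, from 3.73 and 7.05 FPKM (adjusted p = 0.035). In each of these the groups did not overlap. The others that fell were ORC1, ORC6, CDT1, GINS1, PRIM1, POLD1, POLE, RFC3, RFC5, TYMS and UHRF1, by 2.04-fold to 3.31-fold. The count depends on the libraries: it was 2 without MRTFB dN dPY replicate 1, 9 without Puro vector replicate 1, 8 (7 lower and 1 higher) without Puro vector replicate 2, and 4 in a fit of the compared groups alone. Against the Hygro vector 6 fell (8.24% of all loci passed as lower), namely ORC1, CDT1, GINS3, LIG1, RRM2 and UHRF1, with a median of -0.84.

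In MRTFB dN, the form that keeps both partners, 4 genes rose (21.8% of all loci passed as higher) and 2 fell (15% of all loci passed as lower), with a median of 0.00 against 0.09 for all loci. Both counts are below the share of all loci. TK1 rose 3.28-fold from 7.58 and 18.7 FPKM in the Puro vector (limma adjusted p = 0.033). The E2F1 locus rose 2.36-fold, from 4.3 and 5.9 FPKM to 18.1 and 9.72 (adjusted p = 0.014), the nuclease gene FEN1 2.35-fold, from 5.53 and 6.54 FPKM to 17.5 and 13.7 (adjusted p = 0.037), and CCNE2 1.95-fold, from 0.833 and 1.26 FPKM to 3.52 and 2.47 (adjusted p = 0.029). POLE2 fell 2.52-fold, to 0.793 and 0.403 FPKM (adjusted p = 0.0062), and LIG1 1.95-fold, to 6.97 and 4.95 FPKM (adjusted p = 0.035). None of the rises was called without MRTFB dN replicate 1 or without Puro vector replicate 1, and 2 were called without MRTFB dN replicate 2. Against the Hygro vector no gene rose and GINS3 alone fell, a count below the share of all loci (7.1% passed as lower).

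In MRTFB dN Y305A 3 genes rose (14.2% of all loci passed as higher) and POLE2 fell (11% of all loci passed as lower), with a median of 0.32 against 0.10 for all loci. Both counts are below the share of all loci. After median-of-ratios scaling 10.7% of all loci passed as higher and 13.3% as lower, with 1 of the 39 genes in each direction. TK1 rose 3.49-fold (limma adjusted p = 0.037), the helicase subunit gene MCM2 3.0-fold, from 2.68 and 7.86 FPKM to 14 and 18.6 (adjusted p = 0.048), and RPA2 1.99-fold, from 5.56 and 8.66 FPKM to 15.4 and 14.2 (adjusted p = 0.037). POLE2 went 1.93-fold lower, to 0.761 and 1.43 FPKM (adjusted p = 0.039), and had no such direction against the Hygro vector (0.061, adjusted p = 0.97). No gene passed against the Hygro vector (limma, 1.32% of all loci passed as higher). There 2 genes were higher at an unadjusted p under 0.05, with 1802 of all 13137 loci in either direction. None of the 3 rises remained without Puro vector replicate 1 or without either MRTFB dN Y305A library.

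In MRTFB dN Y305A/dPY no gene rose and 3 fell (11.4% of all loci passed as lower), with a median of -0.38 against 0.08 for all loci. The count is below the share of all loci. After median-of-ratios scaling 11.6% of all loci passed as higher and 13.3% as lower. POLE2 fell 2.62-fold, to 0.474 and 0.574 FPKM (limma adjusted p = 0.0095). TYMS fell 2.34-fold, from 6.33 and 4.37 FPKM to 1.53 and 1.83 (adjusted p = 0.038), and GINS1 2.07-fold, from 4.94 and 5.56 FPKM to 1.74 and 2.31 (adjusted p = 0.033). No group overlapped with the Puro vector. With the replicate block 5 genes fell, a count not set against the share of all loci in that fit. The calls depended on single libraries. None passed against the Hygro vector (1.38% of all loci passed as lower), also at an unadjusted p under 0.05.

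**Figure D3:**
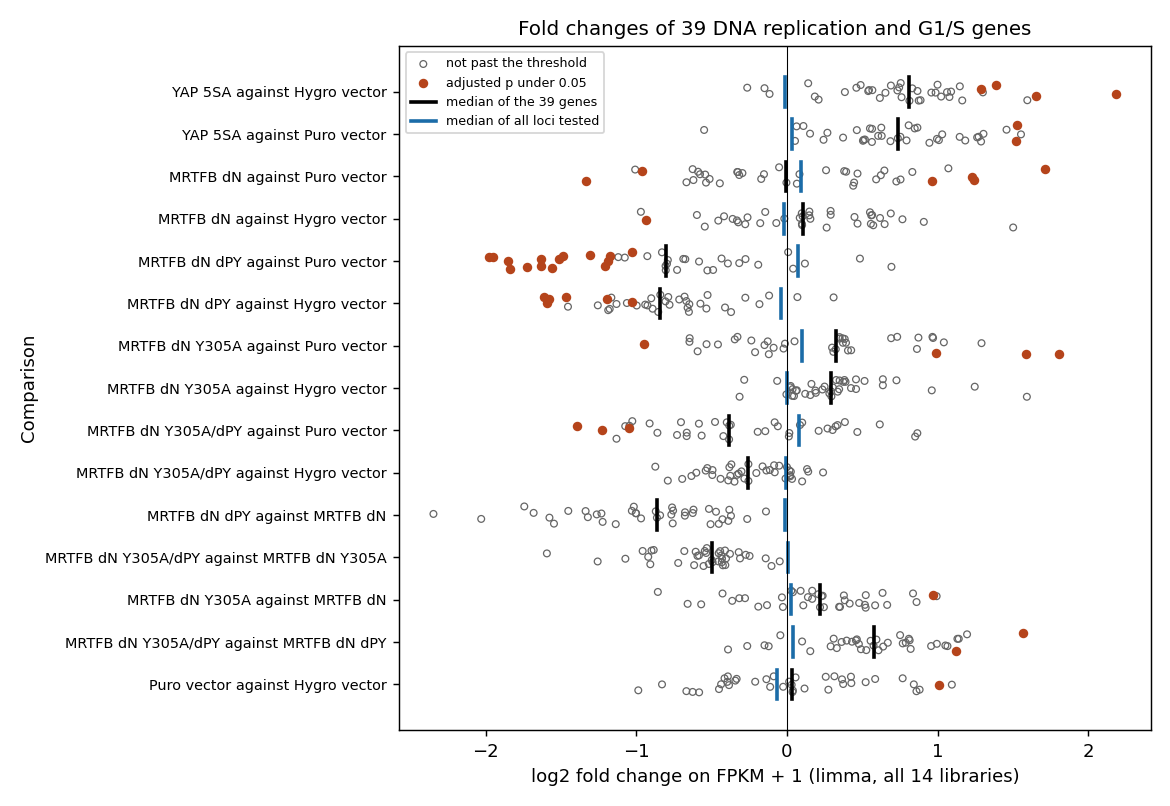
Each point is the log2 fold change of 1 of the 39 genes on FPKM + 1 in 1 comparison, filled where limma's adjusted p is under 0.05, with black bars for the median of the 39 and blue bars for the median of all loci tested. Both comparisons of a PY-deleted form with its parent lie wholly below 0 without a filled point, and most filled points below 0 belong to MRTFB dN dPY against a vector.

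Loss of SRF binding was read by setting MRTFB dN Y305A against MRTFB dN and MRTFB dN Y305A/dPY against MRTFB dN dPY. In the former 1 of the 39 passed, which is below the share of all loci (6.13% passed as higher), and the median was 0.22. It was GINS3, which rose 1.96-fold, from 0.831 and 1.48 FPKM to 2.44 and 4.06 (limma adjusted p = 0.043). That call was lost with median-of-ratios scaling, where the adjusted p was 0.056, and when any library but MRTFB dN Y305A replicate 1 was left out, with an adjusted p of 0.069 to 0.28. In the latter RRM2 rose 2.97-fold (limma adjusted p = 0.033) and LIG1 2.17-fold, from 1.96 and 2.91 FPKM to 5.37 and 7.60 (adjusted p = 0.033). As a count this is below the share of all loci, of which 6.72% passed as higher. The median was 0.58. Both MRTFB dN Y305A/dPY libraries lay above both MRTFB dN dPY libraries for 23 of 33 genes, against 29.2% of all loci, and below them for none. With the replicate block 4 genes rose, a count not set against the share of all loci in that fit. The calls depended on single libraries. Among the 4 MRTFB groups MRTFB dN dPY had the lowest mean for 34 genes and MRTFB dN Y305A/dPY for 5. MRTFB dN Y305A had the highest for 28 and MRTFB dN for 11. Since all 39 genes were lower in each PY-deleted form than in its parent, no lowest mean could lie in a form that binds YAP. That part is no separate result.

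YAP 5SA was set against the Hygro vector to see what hyperactive YAP does to these genes. In it 4 genes rose and none fell (3.93% of all loci passed as higher), with a median of 0.81 against -0.01 for all loci, and 36 of the 39 had a positive log2 fold change. TYMS rose 4.55-fold, from 1.65 and 3.37 FPKM to 20.4 and 10.3 (limma adjusted p = 0.0076). RFC4 rose 3.15-fold, from 2.30 and 6.63 FPKM to 13.3 and 16.5 (adjusted p = 0.038). CDC6 rose 2.62-fold, from 2.08 and 6.50 FPKM to 11.5 and 11.7 (adjusted p = 0.047), and GINS1 2.44-fold, from 2.02 and 3.45 FPKM to 7.17 and 8.79 (adjusted p = 0.031). None of the 4 overlapped between groups. Both YAP 5SA libraries lay above both Hygro libraries for 24 of 39 genes, against 28.3% of all loci. At an unadjusted p under 0.05, 15 genes were higher, with 3071 of all 13137 loci in either direction.

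The size of this difference rests on the Hygro libraries, which lie far apart. Replicate 1 was below replicate 2 for TK1 (6.76 and 28.1 FPKM), MCM5 (6.41 and 22.6 FPKM) and CDC45 (1.20 and 6.70 FPKM), among others. The median log2 fold change was 1.40 without Hygro vector replicate 2 and 0.22 without Hygro vector replicate 1. Without YAP 5SA replicate 1 none passed and without YAP 5SA replicate 2 1 did. With the replicate block 7 passed, a count not set against the share of all loci in that fit. Against the Puro vector 2 genes rose, which is below the share of all loci (5.56% passed as higher). They were CDC6 (2.87-fold from 3.36 and 3.38 FPKM, limma adjusted p = 0.032) and PCNA (2.88-fold, from 16.8 and 28.3 FPKM to 58.5 and 71.7, adjusted p = 0.048). The median was 0.74, and both YAP 5SA libraries lay above both Puro libraries for 33 of 39 genes, against 31.8% of all loci. CCNE1 and the E2F1 locus overlapped between YAP 5SA and Hygro: CCNE1 had 2.66 and 2.42 FPKM with YAP 5SA and 2.06 and 3.80 with the vector, and the E2F1 locus 11.3 and 8.11 FPKM with YAP 5SA and 9.18 and 8.07 with the vector.

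How far the 2 empty vectors differ in these genes as a list cannot be read from these libraries, since the Hygro replicates lie far apart. POLE2 was 2.01-fold higher in the Puro vector, at 3.68 and 2.42 FPKM against 0.52 and 1.59 (limma adjusted p = 0.045). It was the only gene of the 39 to pass, a count below the share of all loci (5.68% passed as higher). The median was 0.03. It was 0.51 without Hygro vector replicate 2 and -0.39 without Hygro vector replicate 1, so it has no stable direction. The 4 comparisons in which POLE2 fell all use the Puro vector.

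Of 32 further replication factors 27 had a negative log2 fold change in each comparison of a PY-deleted form with its parent. The medians were -0.34 and -0.24. Of the 27 with all 4 pairs 13 were lower in every pair (48.1%), against 16.9% of all loci with 4 pairs. Against the Puro vector 11 of the 32 fell and 1 rose in MRTFB dN dPY, where 14.8% of all loci fell and 21% rose. The clamp loader subunit gene CHTF18 (-2.30, limma adjusted p = 0.0096) and the S phase kinase gene CDC7 (-1.66, adjusted p = 0.0017) fell, and the locus of DCK, a deoxynucleoside salvage kinase that shares it with MOB1B, rose. DCK went the other way from the 39 genes with the PY deletion as well: its locus rose from 15.7 and 14.9 FPKM in MRTFB dN to 47.9 and 44.6 with the deletion (1.54, adjusted p = 0.047). Without SRF binding the levels were 8.58 and 6.35 FPKM, and 8.08 and 6.17 with the deletion. In YAP 5SA against the Hygro vector 5 of the 32 rose, where 3.93% of all loci passed as higher. DUT, which clears dUTP, was among them (1.49, limma adjusted p = 0.011).

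Of 27 genes of RB, the E2F family and the G1 cyclins with their inhibitors, none passed in either comparison of a PY-deleted form with its parent, with medians of -0.21 and -0.08. SKP2, which targets the inhibitor p27 for degradation, rose 13.0-fold, from 2.73 and 4.01 FPKM in the Hygro vector to 49.7 and 61.4 with YAP 5SA (limma adjusted p = 0.00013). MRTFB dN had 16.8 and 25.9 FPKM, MRTFB dN dPY 15.3 and 24.4 FPKM, and the Y305A forms between 3.06 and 4.58, so it differed with SRF binding and little with the PY deletion. CDKN1A, which encodes the inhibitor p21, was at 610 and 497 FPKM in MRTFB dN, and at 1146 and 666 with the PY deletion. In the Y305A forms it lay between 166 and 294 FPKM, in the Puro vector at 61.7 and 43.7 and in the Hygro vector at 316 and 353. It passed as higher against the Puro vector in all 4 MRTFB forms, but also differed between the vectors (-2.66 for Puro against Hygro, adjusted p = 0.0055).

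Mitosis genes, which peak later in the cycle, had lower medians than the 39 genes with the PY deletion. Of these 25 genes 23 were lower in all 4 pairs of the deletion (92%), against 16.9% of all loci with 4 pairs. The medians were -1.31 and -0.98 in the 2 backgrounds. In the blocked fit 4 fell, BUB1, KIF20A, KIF23 and BIRC5, where 0.175% of all loci passed as lower. Against the Puro vector 22 of the 25 fell in MRTFB dN dPY, 16 in MRTFB dN Y305A/dPY, 6 in MRTFB dN and 2 in MRTFB dN Y305A, against 14.8%, 11.4%, 15% and 11% of all loci, so that the last count is below that share. In MRTFB dN against Puro the median of the mitosis genes was -0.91 and that of the 39 genes 0.00, while against Hygro the medians were 0.20 and 0.10. In the Puro against the Hygro vector they were 1.14 and 0.03. No test of the difference between the lists was made.

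**Figure D4:**
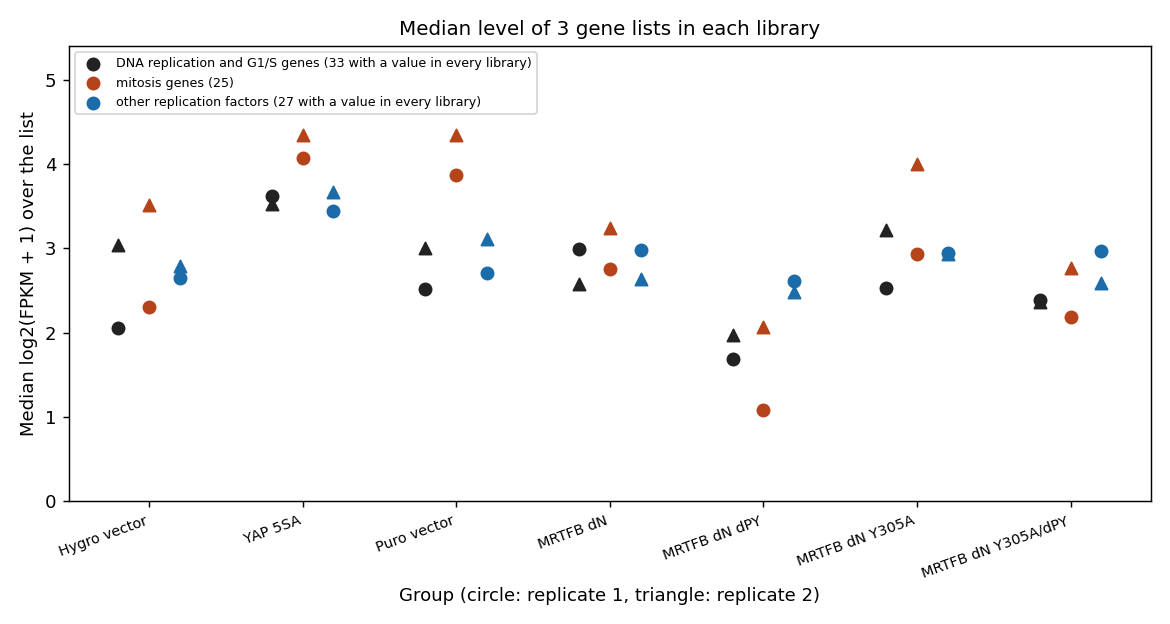
Each point is the median log2(FPKM + 1) of a gene list in 1 library, with circles for replicate 1 and triangles for replicate 2. The replication and mitosis lists are both lowest in MRTFB dN dPY (1.68 and 1.97 against 1.09 and 2.06), while the other replication factors vary less, between 2.48 and 3.66.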

How the data were processed

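Strand-specific poly(A) libraries were sequenced as paired reads. The authors deposited FPKM per locus, with the tools Cufflinks, Cuffnorm, TopHat and Bowtie and the build hg19 named, per the submitters' processing notes. Versions, annotation and library scaling are not given in the sources used here. FPKM holds no counts, so no counting interval is given. All 14 columns were matched to samples by name.

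Named loci with FPKM of 1 or more in at least 2 libraries (13137 of 27543; 6528 unnamed loci left out) entered limma 3.58.1 (R 4.3.3) as log2(FPKM + 1) (linear model on group, intensity trend, two-sided, all 14 libraries, 7 residual and 3.76 prior degrees of freedom). Benjamini-Hochberg adjustment ran over all loci of a comparison, threshold 0.05. Errors are limma's SE, folds are on FPKM + 1 and understate changes of low genes. Zeros of the empty part of MRTFB dN dPY replicate 1 (1824 tested loci) were set missing. The PY deletion was also fitted in the 8 MRTFB libraries with the replicate number as a block. The numbers come from the titles, which do not say what they mark. Deviations of same-numbered libraries correlated at 0.303 to 0.645 over all loci between the 4 MRTFB groups, and at -0.145 to 0.233 where a vector or YAP 5SA was involved. Python 3.11.15, numpy 2.4.6 and pandas 2.3.3 prepared tables. The fits of all 14 libraries, without a block and with a block within the MRTFB groups, were tested on simulated data with independent noise. The blocked fit of the 8 MRTFB libraries, which called TK1, was not simulated.

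The members, lists and tests were chosen with earlier results of these data known. Values in every library are given for up to 4 called members per direction and comparison, for the 2 lowest unadjusted p where none was called, and for some others chosen after their values were seen (among them PCNA, CDC45, CCNE1, MCM5, POLA2, SKP2, CDKN1A and DCK). Alternatives were a pseudocount of 0.1, no filter, median-of-ratios scaling, only the compared groups, the replicate block, the other vector, the zeros kept, and leaving out each library, so that the lone library left is taken to vary as other groups do.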

Additional observations from a re-analysis of the deposited data

How the results depend on the processing

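Groups of 2 and unknown depth limit every call. Except where a share is given, counts under the alternatives, here and above, are not set against the share of all loci in that fit. A change in calling over all loci therefore cannot be told apart from a change in these genes. Members past the threshold (higher and lower together) were, in the order YAP 5SA against Hygro and then MRTFB dN, MRTFB dN dPY, MRTFB dN Y305A and MRTFB dN Y305A/dPY against Puro, 4, 6, 15, 4 and 3. They became 1, 2, 7, 0 and 1 with no filter, 0, 1, 4, 0 and 0 with only the compared groups in the fit, and 2, 1, 6, 0 and 0 with the other vector. A pseudocount of 0.1 gave 2 for YAP 5SA and 2 for MRTFB dN Y305A, median-of-ratios scaling 2 for MRTFB dN Y305A and 5 for MRTFB dN Y305A/dPY, the replicate block 7 for YAP 5SA and 5 for MRTFB dN Y305A/dPY, and the kept zeros 2 for YAP 5SA and 0 for MRTFB dN Y305A. Leaving out a library gave 0 to 14, 1 to 5, 2 to 12, 0 to 5 and 0 to 3. For MRTFB dN Y305A against MRTFB dN (1) the count was 0 with no filter, the compared groups only, median-of-ratios scaling and the kept zeros, and 0 to 1 without a library. For MRTFB dN Y305A/dPY against MRTFB dN dPY (2) it was 0 with no filter and the compared groups only, 4 with the replicate block, and 0 to 1 without a library. For Puro against Hygro (1) it was 0 with no filter, the compared groups only, a pseudocount of 0.1 and the kept zeros, 2 with the replicate block, and 0 to 2 without a library. For the blocked PY deletion (1) it was 0 with no replicate block, all libraries with the block, no filter, a pseudocount of 0.1, median-of-ratios scaling and the kept zeros, and 0 to 1 without a library. The PY deletion without a block, in each background or averaged, and the interaction stayed at 0 under all alternatives run on these fits, with the replicate block over all libraries among them, while the block over the 8 MRTFB libraries is the blocked fit that called TK1. POLE2 in MRTFB dN Y305A turned to 0.061 with the other vector. The cause of these changes was not tested, except that fits with fewer libraries have fewer degrees of freedom. The median of the members kept its sign in the PY deletion under all alternatives, from -1.25 with a pseudocount of 0.1 in MRTFB dN dPY against MRTFB dN to -0.28 without MRTFB dN Y305A replicate 2. Median-of-ratios scaling moved the median of all loci against Puro from 0.09, 0.10 and 0.08 (MRTFB dN, MRTFB dN Y305A, MRTFB dN Y305A/dPY) to -0.01, -0.03 and -0.02, and the members' medians there became -0.13, 0.15 and -0.52.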
